A study of Mus musculus with 10 samples.

Results

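PU.1, the product of Spi1, and other transcription factors of the ETS family were compared between microglia and brain tissue. The 10 genes Spi1, Fli1, Elf1, Elf4, Ets1, Ets2, Elk3, Etv1, Etv5 and Etv6 were taken by symbol from the deposited table of 56748 genes, each symbol matched 1 row, and all 10 passed the filter on low counts. The table itself gives 27 genes the family label ETS. RNA-seq libraries had been made from 5 samples of CD11b+ cells sorted from brain, each of 400000 cells, and from 5 samples of hemi brains in which no cell type was isolated, called bulk brain here. All came from young male C57BL/6 mice with no treatment or engineered allele named in the labels, and all carried the same batch label. Total counts were 25087489 to 28514509 per microglia library and 25845049 to 34709215 per bulk brain library. Since no label ties the replicates to separate animals, each p-value reflects only sample-to-sample spread, part or all of which may be technical.

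ETS factors share a DNA-binding domain that reads a GGAA core, and differ in flanking preference, in partner proteins and in the cells that use them. PU.1 is the factor on which the macrophage lineage depends, and in microglia it binds with IRF, C/EBP and RUNX factors at myeloid enhancers. Fli1, Ets1 and Elk3 are used by blood and endothelial cells, Elf1 and Elf4 by blood cells, and the PEA3 group (Etv1, Etv4 and Etv5) is switched on by fibroblast growth factor and ERK signalling in neural and epithelial cells.

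Of the 10 genes, 8 were higher in microglia, 1 (Etv1) was lower and 1 (Ets2) did not pass the threshold (edgeR quasi-likelihood test, Benjamini-Hochberg adjusted p under 0.05 over 18969 genes). Over all genes tested, 37.2% were higher and 43.9% lower by the same rule. The median log2 difference, microglia minus bulk brain, was 4.04 for the 10 genes and -0.14 for all genes. The groups did not overlap for 8 higher genes and 1 lower gene, where 34.2% and 40.5% of all genes were separated in these directions. In tissue, fewer cells of a type and less RNA per cell cannot be told apart. Only the microglia samples were sorted, so effects of cell type and of sample handling cannot be told apart either.

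**Figure D1:**
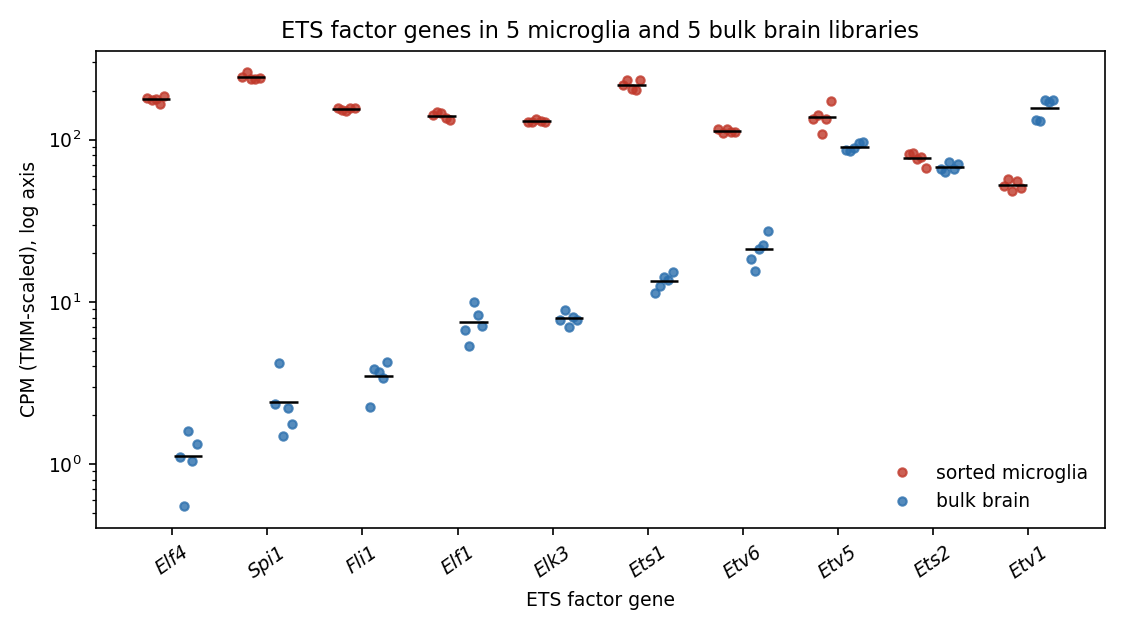
CPM (TMM-scaled, log axis) of the 10 ETS genes in 5 microglia (red) and 5 bulk brain (blue) libraries, with the group mean as a bar. Elf4 and Spi1 are at the left with bulk brain means of 1.12 and 2.40 CPM, Ets2 overlaps between the groups, and Etv1 is lower in microglia.

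Spi1 (ENSMUSG00000002111, chromosome 2, 90912735 to 90946101, plus strand, GRCm39) was about as high in every microglia library and near the bottom of the range in tissue. It stood at 242, 260, 236, 237 and 241 CPM (counts per 1000000 of the library total, adjusted by the trimmed mean of M-values, TMM) in microglia replicates 1 to 5. In bulk brain replicates 1 to 5 it stood at 2.33, 4.21, 1.49, 2.2 and 1.76 CPM, so that the groups were far apart and bulk brain replicate 2 was the highest of its group. The means were 243 ± 9.72 CPM (SD, n = 5) and 2.40 ± 1.07 CPM (n = 5), 101-fold higher in microglia, with a log2 difference of 6.66 ± 0.27 (SE; edgeR adjusted p = 7.4e-10). Against bulk brain replicates 3 to 5 alone, whose mean was 1.82 CPM, the log2 difference was 6.89, and against replicates 1 and 2 alone, whose mean was 3.27 CPM, it was 6.15.

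Elf4, an ETS activator known from lymphoid cells and from interferon induction (ENSMUSG00000031103, chromosome X, 47499923 to 47552009, minus strand, GRCm39), had the largest log2 difference of the 10 genes. Microglia replicates 1 to 5 held 180, 176, 178, 167 and 186 CPM. Bulk brain replicates 1 to 5 held 1.10, 0.548, 1.60, 1.04 and 1.32 CPM, which is 186 counts over the 5 libraries. The gene was thus low in each tissue library, lowest in replicate 2, where Spi1 was highest. The means of 178 ± 6.91 CPM and 1.12 ± 0.389 CPM (SD, n = 5 each) differ 158-fold, with a log2 difference of 7.31 ± 0.24 (SE; edgeR adjusted p = 1.1e-10). Its relative Elf1 (ENSMUSG00000036461, chromosome 14, 79718634 to 79819934, plus strand), which acts on T-cell and blood genes, stood at 142, 148, 146, 136 and 133 CPM in microglia. Bulk brain had 6.74, 5.31, 10, 8.32 and 7.07 CPM, an 18.8-fold difference of the means (log2 difference 4.23 ± 0.17 SE, edgeR adjusted p = 4.9e-10). Elf1 overlaps the coding gene Wbp4 on the opposite strand by 327 bases. Wbp4 had 884% of the counts of Elf1 in bulk brain, and as the strand setting is not given in the sources used here, reads of the shared bases cannot be told apart.

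Fli1 and Ets1, which lie head to head on chromosome 9, were both higher in microglia. Fli1 (ENSMUSG00000016087, 32333500 to 32454157, minus strand), a factor of megakaryocytes and endothelium, and Ets1 (ENSMUSG00000032035, 32547517 to 32669116, plus strand), a factor of lymphocytes and endothelium, are separated by 93.4 kb that hold no coding gene of the table. Fli1 stood at 157, 152, 151, 156 and 156 CPM in microglia and at 2.25, 3.84, 3.68, 3.39 and 4.24 CPM in bulk brain. That is 44.3-fold higher (log2 difference 5.47 ± 0.17 SE, edgeR adjusted p = 7.2e-11), and the microglia libraries varied little, with a coefficient of variation of 1.77%. Ets1 stood at 216, 235, 205, 202 and 234 CPM in microglia and at 11.3, 12.5, 14.3, 13.6 and 15.2 CPM in bulk brain, 16.3-fold higher (log2 difference 4.03 ± 0.11 SE, edgeR adjusted p = 3.9e-11). Ets1 was the second most counted of the 10 genes in microglia, and its level in tissue was 6.13% of that in microglia, against 2.26% for Fli1. The other head-to-head pair, Erg and Ets2 on chromosome 16, separated by 115 kb with no gene of the table between, did not share a call. Erg, the endothelial relative of Fli1, was lower in microglia (0.71 ± 0.377 CPM against 3.44 ± 0.703 CPM; edgeR adjusted p = 0.00023, log2 difference -2.27 ± 0.40 SE), while Ets2 did not pass the threshold.

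Elk3 and Etv6 were higher in microglia, where their coefficients of variation were 1.84% and 2.69%. Elk3 (ENSMUSG00000008398, chromosome 10, 93083276 to 93146997, minus strand), a ternary complex factor that binds with the serum response factor, stood at 128, 128, 134, 131 and 128 CPM in microglia and at 7.78, 8.89, 7.02, 8.08 and 7.71 CPM in bulk brain. The means differ 16.4-fold (log2 difference 4.04 ± 0.09 SE, edgeR adjusted p = 1.2e-11). Elk3 overlaps the coding gene Cdk17 on the opposite strand over 19658 bases, and Cdk17 had 2110% of the counts of Elk3 in bulk brain and 53.2% in microglia, and the same limit on strand applies to the shared bases. Etv6 (ENSMUSG00000030199, chromosome 6, 134012663 to 134247121, plus strand), a repressor needed for blood stem cells, stood at 116, 110, 117, 111 and 112 CPM in microglia. Bulk brain had 18.5, 15.6, 21.3, 22.5 and 27.5 CPM. The 5.37-fold difference (log2 2.42 ± 0.14 SE, edgeR adjusted p = 1.5e-08) was the smallest among the 8 higher genes apart from that of Etv5.

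Among the 10 genes, Etv5, Ets2 and Etv1 had the highest levels in tissue relative to microglia. Etv5 (ENSMUSG00000013089, chromosome 16, 22200059 to 22258469, minus strand) stood at 135, 143, 108, 134 and 173 CPM in microglia and at 86.5, 85.1, 88.4, 95.2 and 96.5 CPM in bulk brain. The groups did not overlap, and the gene was 1.54-fold higher (log2 difference 0.62 ± 0.12 SE, edgeR adjusted p = 0.00042). It was the most variable of the 10 genes among microglia libraries, with a coefficient of variation of 16.6% and its lowest value in replicate 3 and highest in replicate 5. Etv1 (ENSMUSG00000004151, chromosome 12, 38829379 to 38920483, plus strand) stood at 52.0, 57.3, 48.3, 55.4 and 50.6 CPM in microglia and at 133, 130, 177, 172 and 175 CPM in bulk brain. It was 2.98-fold lower than in tissue (log2 difference -1.58 ± 0.12 SE, edgeR adjusted p = 1.3e-07), and bulk brain replicates 1 and 2 were below replicates 3 to 5. Etv4, the remaining PEA3 gene, was lower as well, at 0.214 ± 0.184 CPM against 11.1 ± 2.44 CPM (edgeR adjusted p = 1.7e-07, log2 difference -5.67 ± 0.43 SE). The PEA3 genes thus did not share a direction, Etv5 being higher and Etv1 and Etv4 lower.

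Ets2 (ENSMUSG00000022895, chromosome 16, 95502942 to 95522095, plus strand), a factor that ERK phosphorylates in macrophages, stood at 81.6, 83.0, 76.5, 78.8 and 66.8 CPM in microglia and at 66.0, 63.6, 73.3, 66.2 and 70.8 CPM in bulk brain. The groups overlapped, through microglia replicate 5. The log2 difference of 0.19 ± 0.09 (SE; edgeR adjusted p = 0.072) did not pass the threshold, and it passed without microglia replicate 5 (0.25, adjusted p = 0.024), with upper-quartile scaling (0.26, adjusted p = 0.016) and with a filter of 1 CPM in 5 libraries (0.21, adjusted p = 0.043). Against bulk brain replicates 3 to 5 alone it was -0.01 (adjusted p = 0.86).

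The 250 bases before a start site are shown for Elf4, whose difference was largest, for Etv6, which was higher in microglia by less, and for Etv1, which was lower (RefSeq, GRCm38.p6, gene strand, 5′ to 3′). Capitals mark each GGAA core on either strand, which reads TTCC on the other strand. The windows lie at chrX:48463133-48463382, minus strand for Elf4, chr6:134035450-134035699, plus strand for Etv6 and chr12:38779832-38780081, plus strand for Etv1.
Elf4: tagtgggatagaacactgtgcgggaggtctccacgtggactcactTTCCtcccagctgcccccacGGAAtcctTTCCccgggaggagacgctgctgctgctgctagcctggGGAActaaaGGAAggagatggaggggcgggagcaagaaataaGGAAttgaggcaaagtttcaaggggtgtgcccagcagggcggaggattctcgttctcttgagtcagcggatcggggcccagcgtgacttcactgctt
Etv6: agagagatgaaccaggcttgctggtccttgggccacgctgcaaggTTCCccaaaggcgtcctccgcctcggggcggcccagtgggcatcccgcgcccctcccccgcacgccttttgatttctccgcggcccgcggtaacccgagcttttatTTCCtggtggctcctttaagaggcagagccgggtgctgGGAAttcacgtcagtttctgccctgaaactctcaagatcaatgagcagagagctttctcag
Etv1: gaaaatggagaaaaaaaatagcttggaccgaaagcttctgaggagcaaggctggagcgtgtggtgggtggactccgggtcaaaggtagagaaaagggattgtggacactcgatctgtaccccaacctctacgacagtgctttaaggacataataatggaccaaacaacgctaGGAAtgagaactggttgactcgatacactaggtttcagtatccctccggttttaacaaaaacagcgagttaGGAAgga
The core stood 6 times in the Elf4 window, 3 times in that of Etv6 and 2 times in that of Etv1. The second window of Elf4 held 2 and that of Etv1 held 1, the windows of Elf1 held 2 and 0, those of Etv5 0 and 4, that of Elk3 2 and that of Ets2 1, so the number of cores did not follow the order of the differences. It was found in 93.4% of all 32851 promoter windows of this length, with a median of 3 matches.

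Of the 10 genes, 7 had an entry in the promoter table, with 11 windows in all, and Spi1, Fli1 and Ets1 had none. For the second windows of Elf4 and Etv5, bases after the start were not found in a reference transcript of the gene. The GGAA core was in 9 of the 11. The longer GAGGAA, which PU.1 prefers and which contains the GGAA core, was in 2, the 2 windows of Elf4, both times on the other strand (205 and 75 bases before the respective start), against 23.3% of all windows on either strand. Neither CCGGAAG, preferred by most other ETS factors (6.91% of all windows), nor the composite element of ETS and IRF factors (2.30%), searched on both strands, was in any of the 11. Among the listed targets, 13 genes had an entry, and GAGGAA was in 6 of these. Itgam, which encodes CD11b, the antigen of the sort, is shown with GAGGAA in capitals, which reads TTCCTC on the other strand (chr7:128062390-128062639, plus strand).
Itgam: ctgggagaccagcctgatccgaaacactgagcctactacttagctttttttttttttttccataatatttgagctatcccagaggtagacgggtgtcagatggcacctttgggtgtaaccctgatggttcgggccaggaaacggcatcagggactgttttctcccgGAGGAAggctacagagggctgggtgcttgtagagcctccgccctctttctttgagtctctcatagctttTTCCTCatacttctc
Its transcript reached 498 ± 18.0 CPM in microglia, with 4.65 ± 1.24 CPM in tissue (Itgam). A match is a run of letters, and whether a factor binds there was not measured.

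Markers of the cells that use these genes elsewhere were set beside the results. The 6 microglia markers summed to between 20400 and 21800 CPM in microglia and to 140 to 164 CPM in tissue. Endothelial markers, 10 genes, summed to 79.7 to 106 CPM in microglia, below the 214 to 272 CPM of tissue, and 8 of them were lower and 1, Pecam1, higher where Fli1, Ets1 and Elk3 were higher. The 7 T-cell markers summed to 2.97 to 4.81 CPM in microglia, below the 5.64 to 9.38 CPM of tissue. In microglia this was mostly Cd4 at 3.25 CPM, with Cd3e at 0.134 CPM and 1 count of Trac. The 8 neutrophil markers summed to 7.06 to 17.3 CPM in microglia, against 0.413 to 1.33 CPM in bulk brain. The 3 monocyte markers summed to 22.1 to 34.0 CPM in microglia, with 0.173 to 0.624 CPM in tissue. The 6 markers of border-associated macrophages summed to 410 to 530 CPM in microglia, with 8.61 to 10.1 CPM in tissue. Markers of B cells, 4 genes, summed to 14.6 to 18.5 CPM in microglia, of which Cd79b was 15.9 CPM, with 0.274 to 0.713 CPM in tissue. None of these markers had 0 counts in microglia, and the part of the other CD11b+ cells in the results was not tested. Beside Etv5 and Etv1, the 6 astrocyte markers summed to 131 to 149 CPM in microglia, of which Slc1a3 was 130 CPM, Aldoc 3.74 CPM and Gfap 0.563 CPM, with 2050 to 2300 CPM in tissue. Markers of oligodendrocyte precursors, 4 genes, summed to 1.73 to 3.92 CPM in microglia, with 196 to 223 CPM in tissue. The 4 oligodendrocyte markers summed to 83.5 to 154 CPM in microglia, of which Mbp was 76.8 CPM and Mag 29.4 CPM, with 4270 to 5920 CPM in tissue. Choroid plexus markers, 4 genes, summed to 54.0 to 155 CPM in microglia, of which Ttr was 97.6 CPM, with 558 to 1290 CPM in tissue. The 6 neuronal markers summed to 3.82 to 5.39 CPM in microglia, with 3890 to 4900 CPM in tissue, and the part of these cells in the levels of Etv5 and Etv1 was not tested.

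Per length, the order of the 10 genes in microglia differed from that in tissue. In FPKM (CPM per kilobase of the gene length in the table), Spi1 came first in microglia at 90.3 ± 3.61 (SD, n = 5), followed by Fli1 at 44.2 ± 0.781 FPKM, and the ranges of these genes did not overlap with each other or with the next. Etv5 at 33.8 ± 5.62, Elf4 at 28.9 ± 1.12 and Elk3 at 28.5 ± 0.524 FPKM could not be ordered, since each overlapped its neighbour. Ets1 at 25.8 ± 1.82 FPKM overlapped Etv5 and Elf4 and could not be ordered against them either. Elf1, Etv6, Ets2 and Etv1 followed, from 20.9 ± 0.948 down to 3.97 ± 0.274 FPKM, with no overlap between neighbours. In bulk brain Etv5 came first at 22.0 ± 1.26 FPKM. Ets2 and Etv1, both at 11.8 FPKM, came next with overlapping ranges, and Etv6 stood at 3.53 ± 0.750 FPKM. Elk3, Ets1, Elf1, Fli1 and Spi1 lay between 1.74 and 0.890 FPKM, each overlapping its neighbour, and Elf4 was last at 0.182 ± 0.0633 FPKM. By its mean Spi1 took rank 1 in microglia and rank 9 in tissue, the latter within the group of overlapping genes.

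The make-up of ETS expression differed accordingly. Summed over the 27 genes with the family label ETS, microglia held 413 ± 15 FPKM and bulk brain 92.2 ± 5.82 FPKM (SD, n = 5 each). Spi1 took 21.9% ± 0.484 of that sum in microglia and 0.986% ± 0.502 in bulk brain. Fli1 took 10.7% ± 0.414 against 1.08% ± 0.219, and Elf4 7.0% ± 0.251 against 0.196% ± 0.0621. Etv5 went the other way with 8.17% ± 1.19 in microglia and 23.9% ± 0.685 in bulk brain. Etv1, Etv5 and Ets2 together, grouped after their values were seen, took 12.4% ± 0.995 and 49.5% ± 0.583. Shares are a description without a test. They are the same in TPM by construction, since the scaling of a library cancels in a share.

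**Figure D2:**
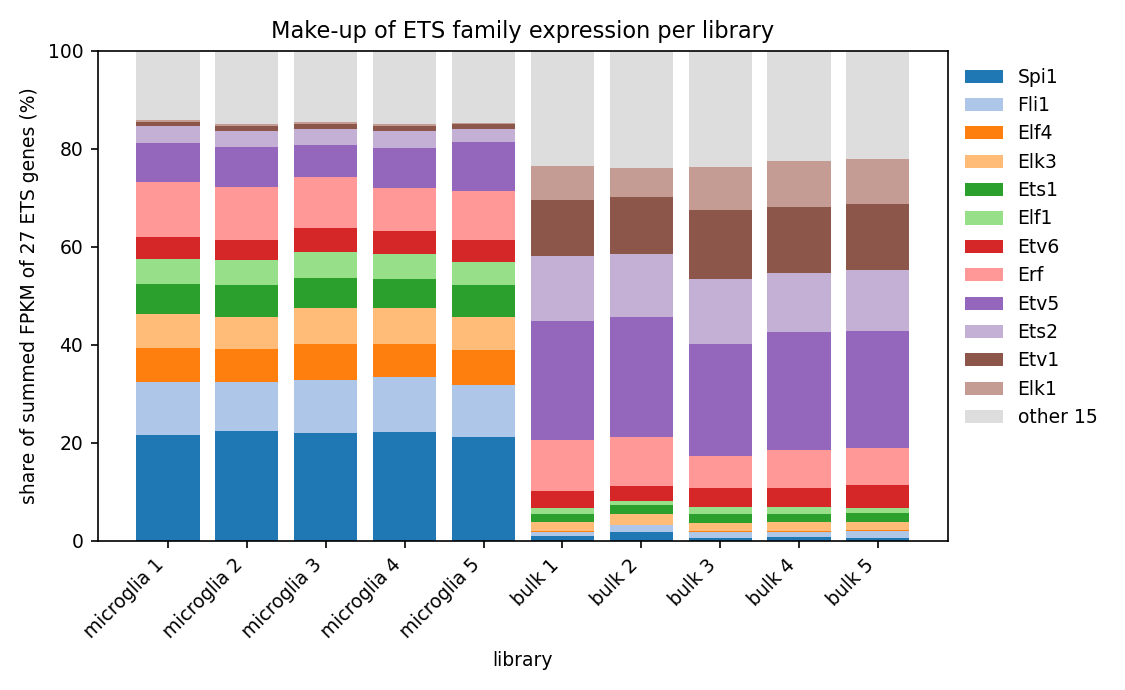
Share of the summed FPKM of 27 ETS genes (%, stacked bars from 0 to 100) in each of 5 microglia and 5 bulk brain libraries. Spi1 takes 21.2% to 22.4% in microglia but 0.583% to 1.84% in tissue, where Etv5 takes 22.7% to 24.4%.

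Of 16 further ETS genes listed, 9 passed the low-count filter, and 6 of these were higher and 3 lower, with a median log2 difference of 1.86. Among all genes tested, 37.2% were higher and 43.9% lower. Without the filter 7 were higher and 7 lower, beside 7518 higher and 12197 lower of all 36812 genes then tested. With a filter of 1 CPM in 5 libraries 5 were higher and 3 lower, beside 6361 and 7278 of 16365 genes. The higher ones included Erf and Etv3, repressors that ERK signalling exports or regulates, at 152 ± 17.7 CPM against 27.9 ± 3.97 CPM and 165 ± 6.51 CPM against 32.2 ± 7.01 CPM. Gabpa, which controls mitochondrial and housekeeping genes, stood at 93.0 ± 1.91 CPM against 29.2 ± 4.94 CPM, Elf2 at 111 ± 5.36 CPM against 29.7 ± 3.13 CPM, and the ternary complex factor gene Elk4 at 102 ± 7.68 CPM against 28.3 ± 2.85 CPM. Elk1, the relative of Elk3 and Elk4, was lower, at 7.28 ± 1.16 CPM against 40.3 ± 9.85 CPM (edgeR adjusted p = 2.2e-07, log2 difference -2.47 ± 0.20 SE), so the ternary complex factors split. Spic, a relative of PU.1 known from red pulp macrophages, had 110 counts over the microglia libraries (0.873 ± 0.362 CPM) and 0 counts in bulk brain, at least 49.1-fold higher when the floor for bulk brain is set at 3 counts over its 5 libraries. It passed the low-count filter only through the microglia libraries. Of the 7 genes that did not pass the filter, Fev, Elf3, Elf5 and Spdef had 0 counts in microglia and 84, 42, 70 and 52 counts in bulk brain, at least 20.3-fold, 10.2-fold, 17.3-fold and 13.3-fold lower against the same floor. Spib, the lymphoid relative of PU.1, had 16 counts in microglia and 5 in bulk brain, Ehf 47 and 14, and Etv2 2 and 0.

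**Figure D3:**
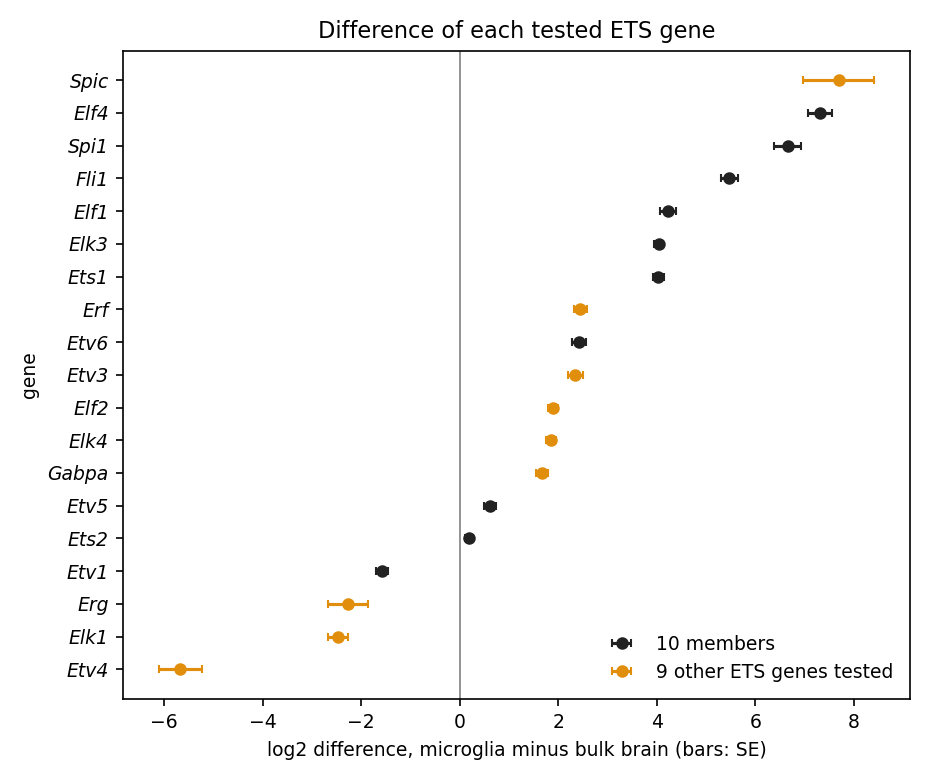
Log2 difference, microglia minus bulk brain, with its SE, for the 10 ETS genes (black) and the 9 further ETS genes that passed the low-count filter (orange). Values run from -5.67 for Etv4 to 7.69 for Spic, whose bulk brain counts are 0, so that its fitted value is no bound.

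For 8 of the 10 genes the coefficient of variation was larger among tissue than among microglia libraries, the exceptions being Ets2 and Etv5. It reached 44.6% for Spi1 in tissue, against 3.99% in microglia. The share of all genes with a larger value in tissue was not counted. Bulk brain libraries held only 41 to 146 counts of Spi1 and 19 to 48 of Elf4, and the part of counting noise was not tested. Relative to the bulk brain mean, Spi1 was 0.970 and 1.76 in replicates 1 and 2 and 0.622 to 0.916 in replicates 3 to 5, while Elf4 was 0.977 and 0.489 against 0.927 to 1.43. The sum of microglia markers ran only from 0.956 to 1.12, highest in replicate 2. Fli1 and Ets1 were lowest in replicate 1 (0.646 and 0.841), where the endothelial marker sum was also lowest (0.894). Both genes were highest in replicate 5 (1.22 and 1.14), while that sum was highest in replicate 2 (1.14). Elk3 was lowest in replicate 3 (0.89) and highest in replicate 2 (1.13). Etv1 was at 0.843 and 0.826 in replicates 1 and 2, where neuronal markers were at 0.941 and 0.870. Choroid plexus markers, 4 genes, summed to 1020 and 1290 CPM in replicates 1 and 2, and to 619, 595 and 558 CPM in replicates 3 to 5. Oligodendrocyte markers, 4 genes, summed to 5370 and 5920 CPM, and to 4320, 4270 and 4310 CPM in replicates 3 to 5. The part of these markers in the spread was not tested. Over all genes, replicates 1 and 2 stood apart, with chi-square values per degree of freedom from 106 to 278 against replicates 3 to 5, where pairs among the latter gave 5.45 to 7.76. Replicates 1 and 2 also differed from each other, at 46.6.

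**Figure D4:**
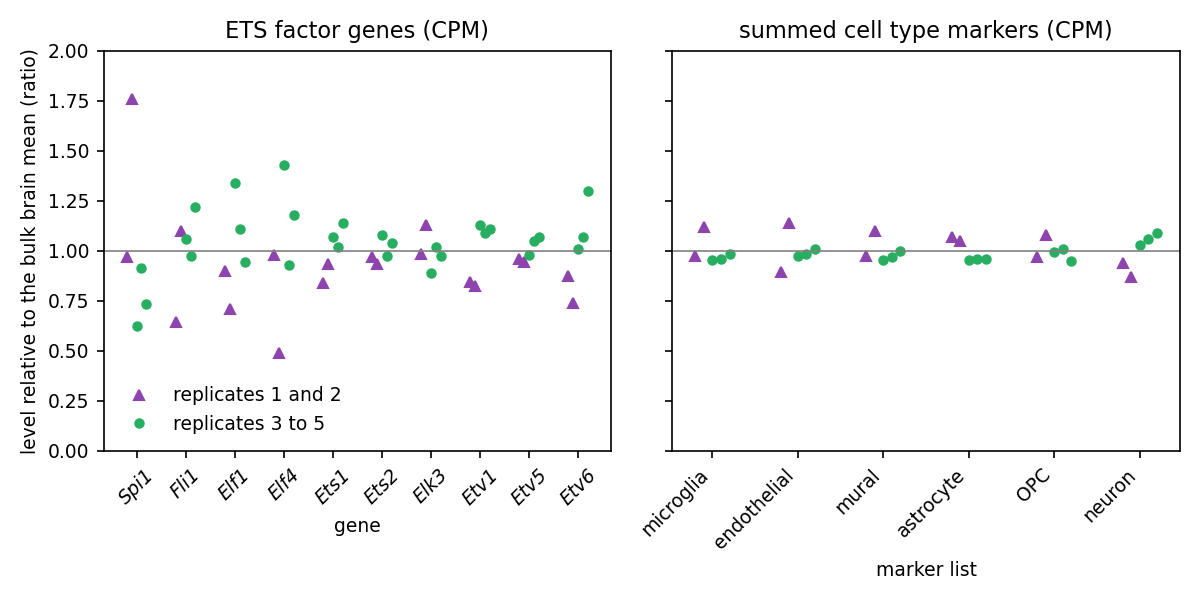
Level in each bulk brain library relative to the mean of the 5 (ratio), for the 10 ETS genes (left) and 6 summed cell type marker lists (right), with replicates 1 and 2 as triangles. Spi1 spreads from 0.622 to 1.76 and Elf4 from 0.489 to 1.43, while the microglia marker sum spreads from 0.956 to 1.12.

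As a percent of the microglial level, bulk brain held 0.533% to 0.840% of the 6 microglia marker genes. Elf4 lay within that range at 0.631% (0.309% to 0.901% over libraries) and Spi1 just above it at 0.985% (0.613% to 1.73%). Fli1 stood at 2.26%, Elf1 at 5.32%, Elk3 at 6.08%, Ets1 at 6.13% and Etv6 at 18.6%. Each of these was above the range of the microglia markers in all 5 bulk brain libraries. The 6 marker genes of border-associated macrophages ran from 0.788% to 6.18%. Spi1, Fli1, Elf1, Elk3 and Ets1 lay within that range, Elf4 below it and Etv6 above it. Which cells hold these levels in tissue was not tested. Etv5, Ets2 and Etv1 stood at 65.1%, 87.9% and 298%.

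Casp8 and Gsdmd were among the 3 coding genes whose levels over the 10 libraries were nearest to those of Spi1, at Euclidean distances of 0.877 and 0.947 in log2(FPKM + 0.1) among 21969 genes. Casp8 stood at 72.7 ± 2.42 FPKM in microglia, with 0.760 ± 0.328 FPKM in tissue, and Gsdmd at 79.1 ± 3.83 and 0.914 ± 0.526 FPKM.

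Genes that PU.1 works with or acts on were mostly higher in microglia. Of 14 listed partner and antagonist genes, 13 were tested and 12 were higher, with a median log2 difference of 4.16. That compares with 37.2% higher and 43.9% lower over all genes tested. Runx1, a partner factor of myeloid enhancers, stood at 146 ± 5.66 CPM against 0.792 ± 0.268 CPM, and Irf8, which binds composite sites with PU.1, at 627 ± 24.1 CPM against 4.61 ± 1.15 CPM. Gata2, whose family opposes PU.1 in blood progenitors, was the 1 lower gene (0.752 ± 0.636 CPM against 5.05 ± 0.696 CPM; edgeR adjusted p = 0.00026, log2 difference -2.75 ± 0.49 SE). Gata1 was not tested, with 0 counts in microglia and 4 in bulk brain, too few to show whether its level differed. All 21 listed target genes were higher, beside 37.2% of all genes, with a median of 6.77. They include Itgam, which encodes the antigen of the sort. The interleukin gene Il1b had the largest difference (62.0 ± 13.1 CPM against 0.0937 ± 0.0767 CPM), and the receptor chain gene Csf2ra the smallest (196 ± 8.27 CPM against 22.8 ± 2.56 CPM). Csf1r, the receptor on which microglia depend, stood at 10300 ± 365 CPM against 63.4 ± 5.21 CPM. These are genes of macrophages, chosen with earlier results of these data known, and their direction is no separate evidence on PU.1.

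Genes of the FGF and ERK pathway, which regulates PEA3 factors, were mostly lower. Of 11 listed, 8 were lower, 2 were higher and Spred1 did not pass (median log2 difference -3.53), beside 37.2% higher and 43.9% lower over all genes tested. The receptor genes Fgfr1, Fgfr2 and Fgfr3 stood at 6.26, 0.474 and 0.760 CPM in microglia against 110, 70.8 and 102 CPM. The feedback genes Spry2 and Spry4 were lower, at 0.566 against 39.5 CPM and 0.220 against 13.4 CPM. Dusp6, an ERK phosphatase gene, was higher instead (482 ± 52.3 CPM against 40.2 ± 4.63 CPM; edgeR adjusted p = 1.6e-10, log2 difference 3.58 ± 0.12 SE), as was Spry1 (19.4 against 8.98 CPM). In the ERK cascade, 2 of 10 genes were higher and 4 lower (median -0.24), the latter close to the 43.9% of all genes. With bulk brain replicates 3 to 5 alone, 4 were higher and 6 lower, beside 7621 and 9534 of 20098 genes then tested. With replicates 1 and 2 alone 2 were higher and 6 lower, beside 7649 and 9269 of 20643 genes. Nras was higher at 95.6 ± 3.49 CPM against 43.9 ± 2.55 CPM, and Hras lower at 16.5 ± 0.906 CPM against 102 ± 54.2 CPM.

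Of 8 genes that act with or downstream of the serum response factor and ternary complex factors, 7 were higher and 1 lower (median 3.08), beside 37.2% and 43.9% of all genes. Fos stood at 2680 ± 402 CPM against 26.0 ± 11.8 CPM, and Srf itself at 47.0 ± 4.66 CPM against 32.6 ± 2.21 CPM. Cell type and the sorting, done for microglia alone, cannot be told apart for these genes. Mrtfb, a coactivator gene of the serum response factor, was lower (20.7 ± 1.43 CPM against 156 ± 56.1 CPM). Among 6 corepressor genes the calls were 2 higher and 2 lower, and 2 did not pass (median 0.22), shares near those of all genes. Against bulk brain replicates 1 and 2 alone 4 were higher, beside 7649 of 20643 genes. Against replicates 3 to 5 alone 4 were lower, beside 9534 of 20098 genes. Ncor1, which did not pass, stood at 277 CPM in microglia, 123 CPM in bulk brain replicates 1 and 2 and 319 CPM in replicates 3 to 5. Of the called genes, Tle3 stood at 238 ± 8.49 CPM against 50.2 ± 2.47 CPM and Tle1 at 20.1 ± 0.790 CPM against 39.1 ± 2.08 CPM.

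**Figure D5:**
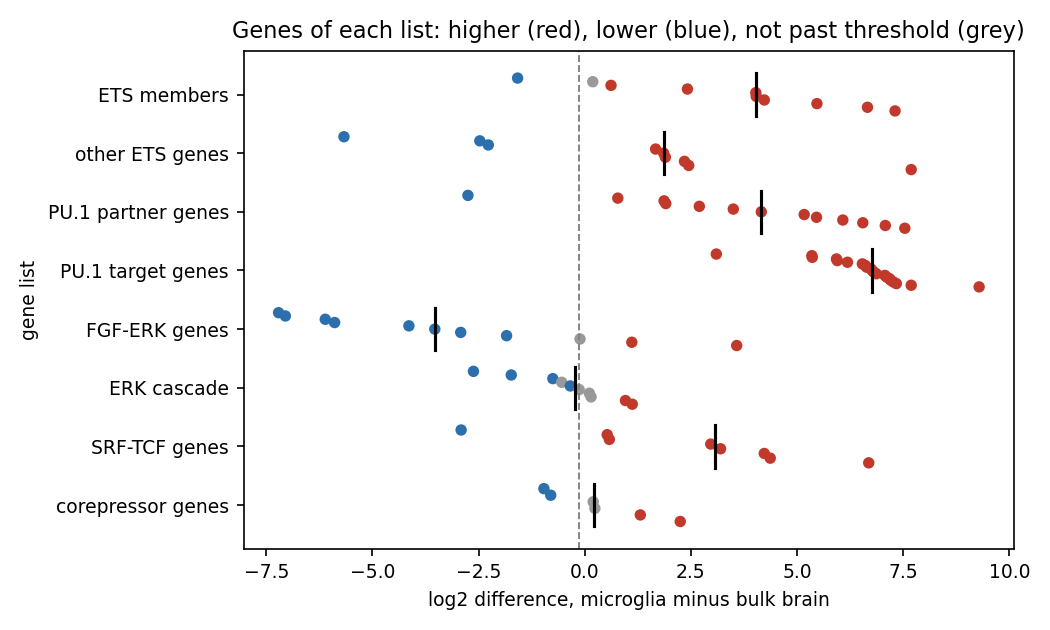
Log2 difference, microglia minus bulk brain, of every tested gene in 8 lists, with the list median as a black bar and the median of all genes tested (-0.14) as a dashed line. All 21 PU.1 target genes lie to the right of 0, while FGF-ERK genes have a median of -3.53.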

How the data were processed

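Raw counts per gene, not normalized, were deposited by the authors in a single table. The submitters' processing notes list CASAVA, HISAT2 2.2.1, featureCounts 2.0 and the build GRCm39 without saying which step used which. Strand setting and annotation release: not given in the sources used here. Symbols, gene lengths and 1-based coordinates were read from this table, per the file headers, and 0 value columns lacked a sample.

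After filterByExpr by group (18969 of 56748 genes kept) and TMM scaling, edgeR's quasi-likelihood test was run on all 10 libraries with group as the only term (R 4.3.3, edgeR 4.0.16 and limma 3.58.1), with Benjamini-Hochberg adjustment and a threshold of 0.05. The SE is the log2 difference over the root of the F statistic. The code was tested on simulated data. From the deposited counts, CPM and FPKM were derived on TMM-scaled totals in Python 3.11.15 (numpy 2.4.6, pandas 2.3.3, matplotlib 3.10.9). A count of 3 equals 0.082 to 0.13 CPM in a library, covering counting error only. No replicate pair agreed within counting noise: the lowest chi-square per degree of freedom was 5.45.

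The 10 genes, the lists and the alternatives were chosen with earlier results of these data known. Named by rule were the 10 genes, the other ETS genes, the largest difference in each direction per list with 5 CPM or more in the higher group, and the 3 genes nearest to Spi1, of which 1 is not reported here. Other genes were named after their values were seen. Alternatives were other scalings and filters, DESeq2 1.42.0, limma-voom, the replicate number as a block, subsets of bulk brain and leaving out each library. Promoter sequences are from RefSeq on GRCm38.p6, matched by symbol, and were not joined to the coordinates of the count table. Protein sequences were not analysed here.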

Additional observations from a re-analysis of the deposited data

Results flagged for a closer look

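Of 38 groups of 5 libraries (19 ETS genes in 2 groups, Spic being at 0 throughout bulk brain), 4 had a library far from the other 4 by Dixon's criterion, where chance gives about 1 in 20. Spi1 in microglia replicate 2 stood at 260 CPM, against 236 to 242 CPM in the others. Spic in microglia replicate 4 stood at 1.51 CPM, against 0.659 to 0.810 CPM. The summed markers of border-associated macrophages were also highest in that library, at 530 CPM against 410 to 413 CPM, and their part in the Spic value was not tested. Etv4 in bulk brain replicate 2 stood at 15.4 CPM, against 9.36 to 10.8 CPM. Elk4 in bulk brain replicate 1 stood at 23.4 CPM, below 28.7 to 30.7 CPM in the others. All 4 genes were called in the same direction without the library in question.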

How the results depend on the processing

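Of the 10 genes, 8 were higher and 1 lower under all 20 refits except where Ets2 also passed the threshold as higher. Ets2 ranged from -0.01 to 0.26 over these refits, and its sign turned (-0.01) with bulk brain replicates 3 to 5 alone. The other 9 genes kept their direction and their call in each refit, with Spi1 between 6.15 and 6.89, Elf4 between 6.93 and 7.66, Etv5 between 0.41 and 0.71 and Etv1 between -1.88 and -1.40. The median of all genes, -0.14, became -0.31 under median-of-ratios scaling, -0.33 when scaled by totals and -0.85 without a low-count filter, and the small differences of Etv5 and Ets2 are relative to it. The further ETS genes called lower numbered 7 with no low-count filter and 5 with bulk brain replicates 1 and 2 alone, in place of 3. Of all genes, 12197 of 36812 and 9269 of 20643 were lower in these refits. ERK cascade genes called lower numbered 4 to 6 over the refits, with 4 in the main fit. With bulk brain replicates 3 to 5 alone, 4 ERK cascade genes were higher and 4 corepressor genes lower. Beside these stood 7621 higher and 9534 lower of 20098 genes then tested. With replicates 1 and 2 alone 4 corepressor genes were higher, beside 7649 of 20643 genes. These counts were 2 each in the main fit, and the cause of the change was not tested. The replicate block kept the counts at 8 higher and 1 lower and moved those of all genes from 7048 and 8320 to 6858 and 8037. Same-numbered libraries did not deviate together (correlations -0.05 to 0.02), and 0 of 5 microglia libraries correlated best with their own number. Depth limits Etv4 in microglia, with 2 to 13 counts per library, and Erg, with 4 to 28.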
